A study of Gallus gallus with 24 samples.

Results

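DNA repair genes were followed in the heart and liver of chickens fed salinomycin (Sal), an ionophore given in feed against coccidia, and of control chickens. The set was a list of 49 symbols chosen by function, with earlier results of these data known. It ran from break sensing to genes that join ends, copy from the sister strand, remove crosslinks, correct mismatches or excise damaged bases. Of the 49 symbols, 46 were matched among the 15051 genes of the count table. MDC1, ERCC2 and XRCC1 were not matched and were not analysed here. All 46 matched genes passed the filter on low counts in every comparison.

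The birds were female broilers housed in pens and kept on Sal-free feed before the experiment. The pen of each sampled bird was not given in the sources used here, so an effect of pens on the groups could not be tested. From week 4 to week 5 the Sal-exposed birds received 10.5 mg Sal per kg feed, which the labels put at 0.9 mg/kg body weight daily, and the control birds received Sal-free feed. On the last day the heart and the liver of 6 birds per group were dissected, and each of the 24 libraries came from a piece of a whole organ that holds several cell types. The 4 groups are called control heart, Sal heart, control liver and Sal liver. Hearts and livers were homogenized in different ways before RNA isolation, so the tissue and its extraction cannot be told apart. In whole tissue, fewer cells of a type and less RNA per cell cannot be told apart either.

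A cell answers a DNA break by way of the kinases ATM and ATR, which mark the break and slow the cell cycle while repair proteins gather. Homologous recombination copies the lost sequence from the sister chromatid and is used mainly by dividing cells, whereas end joining rejoins the ends directly and also works in resting cells such as hepatocytes and cardiomyocytes. The Fanconi anaemia proteins act at DNA crosslinks, mismatch repair corrects copying errors, and the excision pathways cut out bulky lesions or single damaged bases.

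Between 31.4 and 44.5 M counts per library fell on genes. Mitochondrial genes took 72.0% of the counts in Sal heart 1 and 79.6% in Sal heart 4, against 38.6 to 49.5% in the other hearts. In the livers this share lay between 5.21 and 30.4%, and the highest value was that of Sal liver 4. Control livers 1 and 6 had a count for 13311 and 12355 genes, and the other livers for 14184 to 14664. The matched genes were of modest abundance, with a median over libraries of 33.5 (LIG4) to 2081.5 (PARP1) counts, and BARD1, XRCC2, LIG4 and FANCC had no count in control liver 6 and RAD54B none in control liver 1. Cardiomyocyte markers in the hearts and hepatocyte markers in the livers fitted the labelled tissues, with summed levels of 22843 to 39194 CPM in hearts and 114980 to 306563 CPM in livers. CPM are counts scaled to library size by TMM, on one scale for all 24 libraries, and log2FC is the log2 fold change.

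In the heart, no DNA repair gene passed the test. With edgeR's quasi-likelihood test and an adjusted p of at most 0.05, 0 of 46 genes were called, and over all 13526 genes tested 0.185% were called. At an unadjusted p below 0.05 there were 3 genes, 6.52% of the set against 17.2% of all genes. All 3 had lower means in the Sal hearts, and 7.1% of all genes were lower at this limit. Of the set, 13 genes (28.3%) had a log2FC above 0, beside 47.8% of all genes, and 33 below 0, with a median of -0.08 beside -0.02 over all genes. DESeq2 called 1 gene, ATR, beside 4.59% of all genes, and a fit with surrogate variables called ATR and TP53BP1, beside 7.34% of all genes.

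ATR, the kinase that answers single-stranded DNA at stalled replication forks, stood furthest from 0 in the heart (chromosome 9, 10124120 to 10160339 on GRCg7b, the build of all positions given here). Its level was 4.22, 5.41 and 6.56 CPM (lowest, median and highest) in the control hearts, and 2.11, 3.31 and 4.16 CPM in the Sal hearts. Every Sal heart lay below every control heart, a separation in this direction that 0.983% of all genes showed. The log2FC of ATR was -0.75 (SE 0.19), with an adjusted p of 0.0997 in edgeR, 0.0144 in DESeq2 and 0.0297 with surrogate variables. Without Sal heart 3 edgeR called it, at a log2FC of -0.84, and without Sal hearts 1 and 4 its log2FC was -0.67 with an adjusted p of 0.133.

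TP53BP1 encodes 53BP1, which protects broken ends and steers them to end joining. It had 11.8, 12.8 and 15.2 CPM in the control hearts and 5.92, 9.87 and 12.1 CPM in the Sal hearts, with 5 of 6 Sal hearts below all controls and a log2FC of -0.43 (SE 0.15, adjusted p 0.174, edgeR). PRKDC, the catalytic subunit of the DNA-dependent protein kinase of end joining, had a log2FC of -0.36 (SE 0.16, adjusted p 0.27), again with 5 of 6 Sal hearts below the controls. ATM, the kinase that answers DNA breaks, had a mean of 11.0 ± 1.08 CPM in control hearts and 8.97 ± 1.79 CPM in Sal hearts (SD, n = 6 each), and the groups overlapped. None of these genes was called in the heart by edgeR. The Sal hearts also had a lower summed level of 7 fibroblast markers (1654 to 2537 CPM, against 2277 to 3613 CPM in control hearts, exact permutation p = 0.00866, 0.0433 adjusted) and a higher one of 10 cardiomyocyte markers (28061 to 39194 CPM, against 22843 to 29967 CPM, exact p = 0.00433, 0.0389 adjusted). The hepatocyte markers had a median log2FC of 1.76 in the Sal hearts (8 of 11 above 0), with ALB, AHSG and APOH called higher, although their summed level was 301 to 541 CPM in Sal and 262 to 791 CPM in control hearts. The part of these markers in the values above was not tested.

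No gene of the remaining pathways was called in the heart either. The lowest log2FC in homologous recombination was that of BRCA1, at -0.74 (SE 0.39, adjusted p 0.347, edgeR), and the highest that of PALB2, which links BRCA1 to BRCA2, at 0.10. BRCA1 varied widely among control hearts, from 2.24 to 10.8 CPM. Control hearts 3 and 5, with the lowest BRCA1, had the lowest summed level of proliferation markers (82.6 and 76.0 CPM), and control hearts 4 and 6, with the highest BRCA1, had the highest (263 and 342 CPM). By exposure, 3 of the 12 proliferation markers found had a log2FC above 0 in the heart (median -0.44, none called). Their summed level was 113 to 241 CPM in Sal and 76.0 to 342 CPM in control hearts (exact permutation p = 0.727). The part of dividing cells in these values was not tested.

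End joining in the heart ran from -0.57 for POLQ, the polymerase of the microhomology route, to 0.27 for XRCC4, the partner of DNA ligase IV. The Fanconi anaemia genes ran from -0.29 (FANCA, of the core complex) to 0.18 (FANCD2, which is ubiquitinated at crosslinks), and the mismatch genes from -0.08 (MSH6) to 0.04 (PMS2). In nucleotide excision repair the extremes were ERCC4 at -0.20 and the damage verifier XPA at 0.21. In base excision they were the uracil glycosylase UNG at -0.40 and the 8-oxoguanine glycosylase OGG1 at 0.06. Each had an adjusted p of at least 0.367. With the mitochondrial share as a covariate FANCD2 was at 0.72, XPA at 0.57, OGG1 at 0.62 and FANCA at 0.10, and none was called. The share itself was 40.7 to 79.6% in Sal and 38.6 to 47.9% in control hearts (exact permutation p = 0.0368, 0.0789 adjusted). This fit therefore cannot fully separate the share from exposure.

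**Figure D1:**
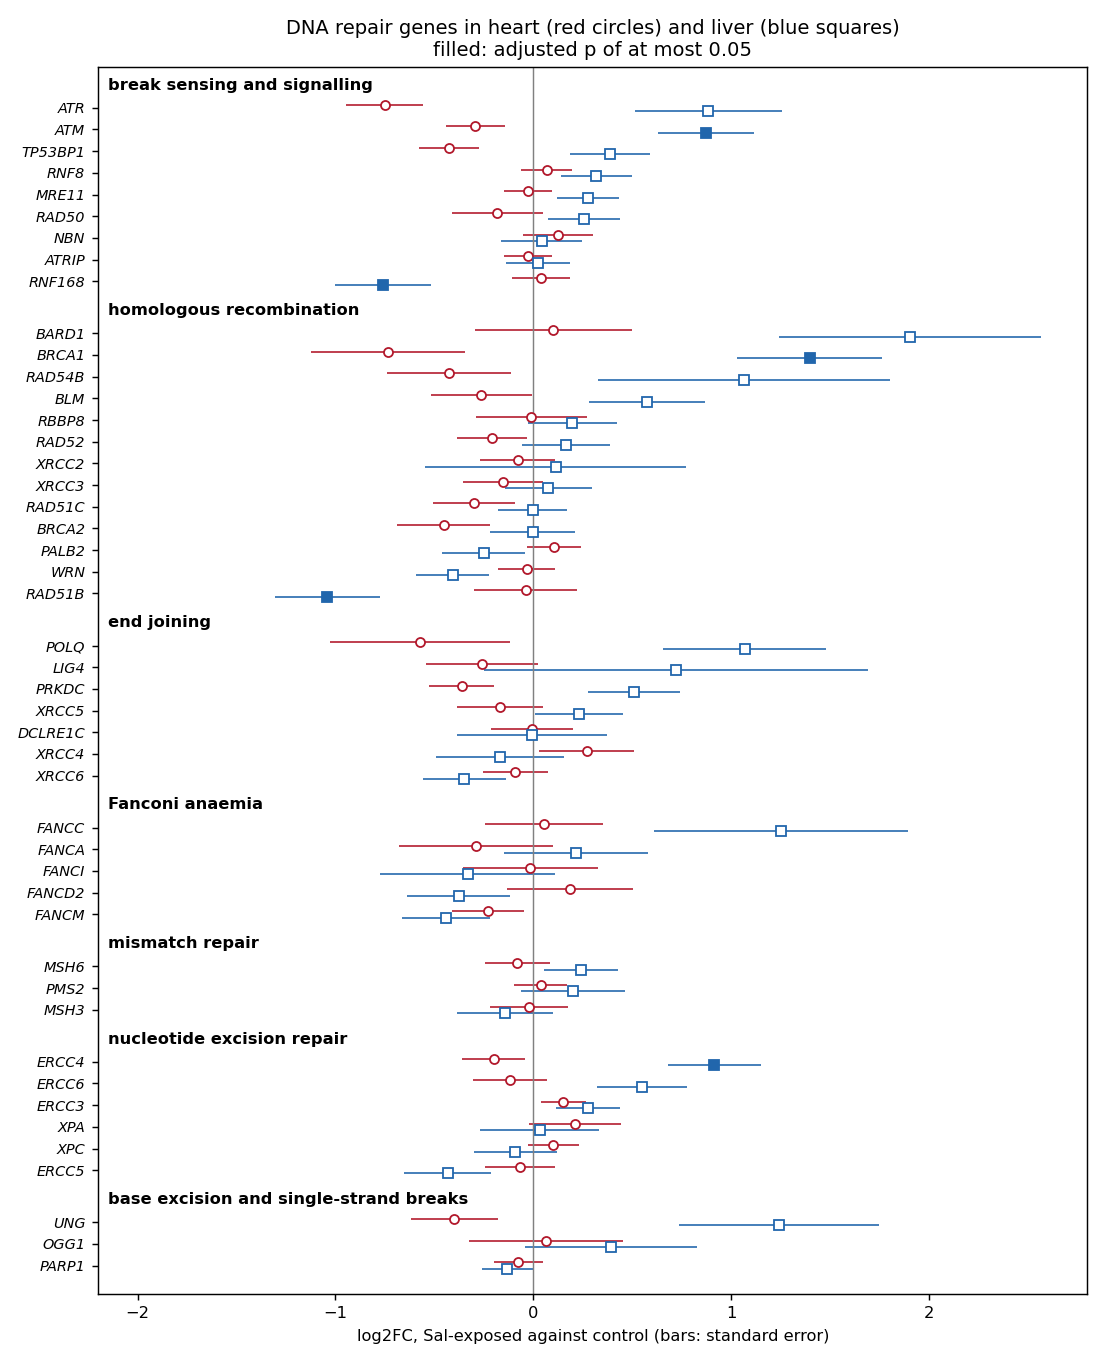
Log2FC of the 46 DNA repair genes in Sal-exposed against control birds (horizontal axis, with standard errors), by pathway, for heart (red circles) and liver (blue squares), filled where the adjusted p was at most 0.05. The 5 filled symbols are all liver values, 3 to the right of 0 (ATM, BRCA1, ERCC4) and 2 to the left (RNF168, RAD51B), and the heart value of ATR, at -0.75, is the lowest of the heart.

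In the liver, the main edgeR fit called BRCA1, ERCC4 and ATM higher and RAD51B and RNF168 lower with Sal exposure. The 5 called genes were 10.9% of the 46, against 15.4% called over all 13587 genes tested. By direction, 6.52% of the set was called higher against a background of 7.57%, and 4.35% lower against 7.84%, so the set held no larger share of called genes than the transcriptome did. At an unadjusted p below 0.05 there were 9 higher genes, 19.6% of the set beside 15.4% of all genes. At this limit 3 genes were lower, 6.52% beside 16.1%, and both directions together were 26.1% beside 31.5% of all genes. A log2FC above 0 was found for 30 of 46 genes, 65.2% beside 49.3% of all genes, with a median of 0.20 beside -0.01.

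The count of called genes in the liver depended on single libraries. It was 3 without Sal liver 4, 1 without Sal liver 5, 0 without Sal liver 6, 1 without control liver 4 and 10 without control liver 2. The count over all genes moved as well, from 2093 to 1892, 1106, 896, 1204 and 2353 in the same 5 fits. Without control livers 1 and 6, ATM, BRCA1 and ERCC4 were called again together with BARD1 and WRN, beside 12% of all genes. RAD51B (log2FC -0.72, adjusted p 0.0777) and RNF168 (-0.37, adjusted p 0.164) were not called in that fit. With a block on the replicate number in edgeR, BRCA1 (adjusted p 0.0584), ERCC4 (0.0748), ATM (0.0703) and RNF168 (0.101) lost their calls, and 7.43% of all genes were called. With surrogate variables in the edgeR fit 0 of 46 genes and 0 of all genes were called in the liver. DESeq2 without them called 7 of the 46 genes, beside 22.1% of all genes.

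**Figure D2:**
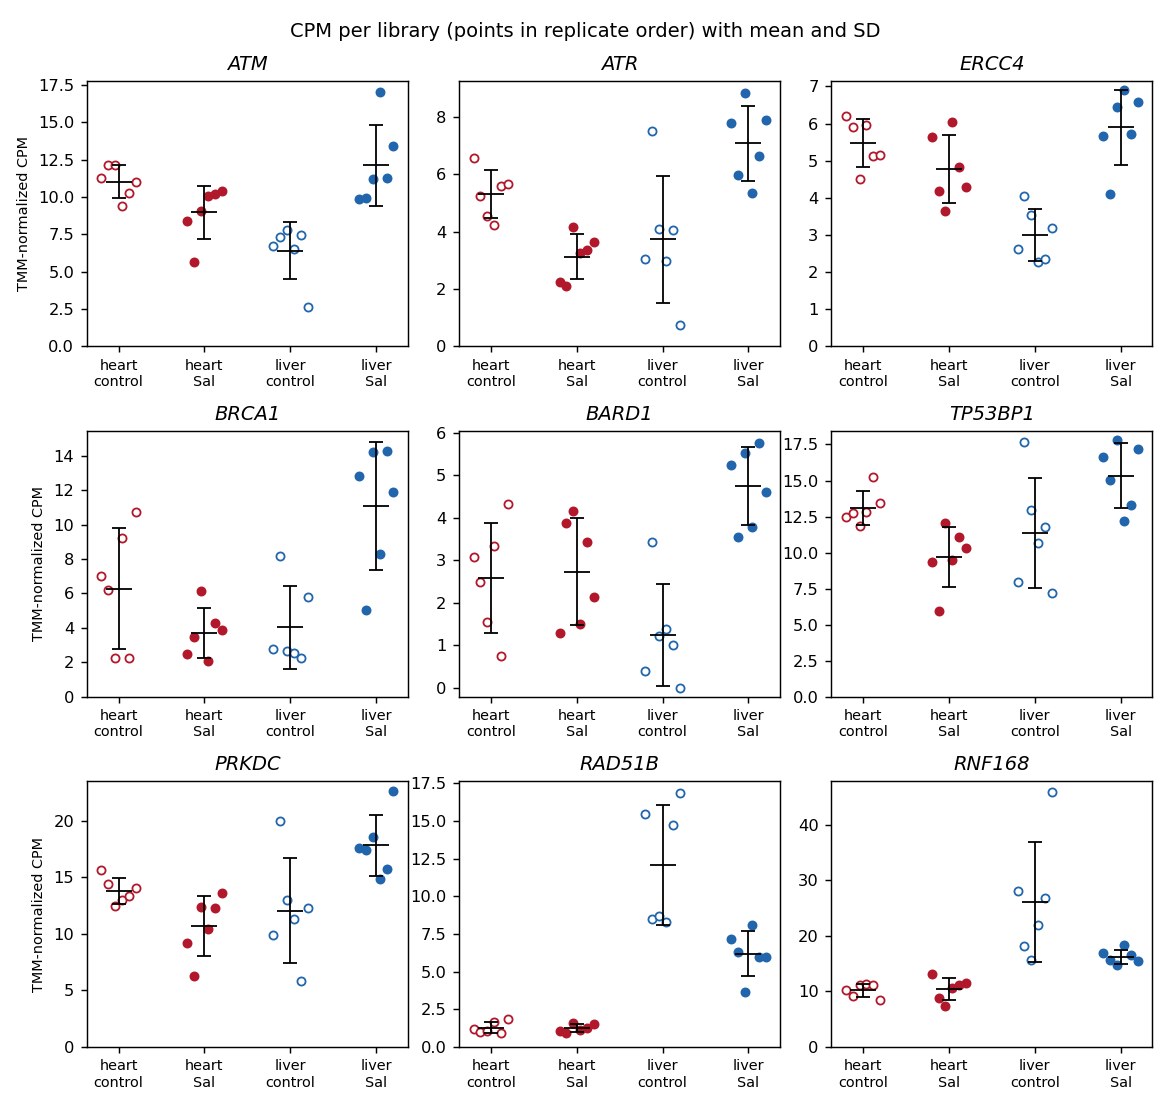
TMM-normalized CPM of 9 DNA repair genes in each library (points; open for control, filled for Sal-exposed; red for heart, blue for liver), with the mean and SD of each group of 6. ATM, ERCC4 and BARD1 in every Sal liver lie above every control liver, RAD51B in every Sal liver lies below them, and ATR in every Sal heart lies below every control heart.

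Among the genes of break sensing, ATM (chromosome 1, 180132376 to 180192070) had 2.62, 7.01 and 7.76 CPM in the control livers and 9.87, 11.2 and 17.04 CPM in the Sal livers. The groups did not overlap, and ATM was called in edgeR with a log2FC of 0.87 (SE 0.24, adjusted p 0.0276). The call was lost without Sal liver 4, 5 or 6 or control liver 4, with adjusted p-values up to 0.0634, and with offsets on genomic span (log2FC 0.60, adjusted p 0.0938). ATR had 0.749, 3.55 and 7.50 CPM in control livers and 5.33, 7.19 and 8.84 CPM in Sal livers. The groups overlapped because control liver 2 had 7.50 CPM, and the log2FC of 0.88 (SE 0.37) had an adjusted p of 0.117. ATRIP, the subunit that carries ATR to single-stranded DNA, had a log2FC of 0.02.

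MRE11, RAD50 and NBN form the complex that binds the broken end and activates ATM. Their log2FC in the liver was 0.27, 0.26 and 0.04, and none was called. The ubiquitin ligases RNF8 and RNF168 act after ATM, RNF8 first and RNF168 as the one that extends the mark on chromatin. RNF168 (chromosome 9, 4368731 to 4424519) had 15.7, 24.4 and 45.9 CPM in control livers and 14.8, 16.04 and 18.3 CPM in Sal livers. The groups overlapped, with 3 of 6 Sal livers below all controls, and the log2FC of -0.76 (SE 0.24) had an adjusted p of 0.0468 in edgeR. This call remained in only 2 of the 12 fits that left out 1 library, those without control liver 2 or 3. It was also lost in edgeR with upper-quartile scaling (adjusted p 0.0654) and without the filter on low counts (0.0519). With the mitochondrial share as a covariate the log2FC was -0.48 (adjusted p 0.142). The RNF168 model overlaps 5 other gene models in the files (UBXN7, TM4SF19, NEU4, GAL3ST2 and D2HGDH), whose strand was not used, so the source of its reads is less certain. An overlap with another gene model was found for 23 of the 46 genes. RNF8 had a log2FC of 0.32 (adjusted p 0.246) and TP53BP1 of 0.39 (adjusted p 0.203).

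In homologous recombination, BRCA1 (chromosome 27, 5148369 to 5169519), the tumour suppressor that promotes end resection, had 2.24, 2.72 and 8.16 CPM in control livers and 5.02, 12.4 and 14.3 CPM in Sal livers. Of the 6 Sal livers, 5 lay above all controls, and Sal liver 2 was the exception. BRCA1 rose with a log2FC of 1.40 (SE 0.37, adjusted p 0.0224, edgeR), and the call was lost without Sal liver 5 or 6 or control liver 4 (adjusted p up to 0.0524). BARD1, its obligate partner in a ubiquitin ligase, had 0, 1.12 and 3.44 CPM in control livers and 3.54, 4.92 and 5.74 CPM in Sal livers. These groups did not overlap, yet the log2FC of 1.90 (SE 0.66) had an adjusted p of 0.0638, and DESeq2 called the gene. Separation of this kind in the higher direction was seen in 3 of the 46 genes (ATM, BARD1 and ERCC4), 6.52% beside 3.8% of all genes.

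RAD51B (chromosome 5, 27907959 to 28267566), a gene of homologous recombination, went the other way. It had 8.31, 11.7 and 16.8 CPM in control livers and 3.64, 6.14 and 8.11 CPM in Sal livers. Every Sal liver lay below every control liver, as for 1.94% of all genes, and RAD51B fell with a log2FC of -1.04 (SE 0.27, adjusted p 0.0203, edgeR). Control livers 1, 5 and 6 (14.7 to 16.8 CPM) were well above the other controls (8.31 to 8.67 CPM). The call was lost without Sal liver 5 or 6 and without control livers 1 and 6 together. The model of RAD51B overlaps that of TMEM229B, which had 29.3 CPM over the livers.

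The other genes of homologous recombination were not called. WRN, a helicase, had a log2FC of -0.41 (SE 0.18, adjusted p 0.144), and BLM, the related helicase that dissolves joint molecules, of 0.57 (SE 0.30, adjusted p 0.198). BRCA2, the partner of PALB2, had 7.30 ± 1.95 CPM in control livers and 7.56 ± 1.32 CPM in Sal livers (SD, n = 6 each). PALB2, RAD51C, RAD52, XRCC2, XRCC3 and RBBP8 had log2FC values between -0.25 and 0.20, and RAD54B, with few counts, had 1.06 with a standard error of 0.74.

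No end joining gene was called in the liver. POLQ had 1.09, 1.70 and 4.79 CPM in control livers and 1.45, 5.03 and 6.88 CPM in Sal livers, with a log2FC of 1.07 (SE 0.41, adjusted p 0.0918, edgeR), and control liver 2 held the highest control value. PRKDC had a log2FC of 0.51 (SE 0.23, adjusted p 0.148). XRCC5 and XRCC6 encode Ku80 and Ku70, the ring that caps a broken end, and had log2FC values of 0.23 and -0.35. DCLRE1C, the Artemis nuclease, had 2.49 ± 1.20 and 2.58 ± 0.93 CPM in control and Sal livers.

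The Fanconi anaemia genes included no call and ranged from -0.44 for FANCM, the translocase that finds the crosslink, to 1.25 for FANCC of the core complex. FANCC had 0, 0.706 and 1.82 CPM in control livers and 1.72, 1.93 and 2.87 CPM in Sal livers, and its log2FC had a standard error of 0.64 (adjusted p 0.199). Mismatch repair gave -0.14 for MSH3, 0.20 for PMS2 and 0.24 for MSH6, each with an adjusted p of at least 0.403.

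In nucleotide excision repair, ERCC4 (chromosome 14, 679489 to 692387), which encodes the XPF nuclease that cuts beside a lesion, had 2.28, 2.92 and 4.04 CPM in control livers and 4.11, 6.08 and 6.91 CPM in Sal livers. The groups did not overlap, and ERCC4 rose with a log2FC of 0.91 (SE 0.24, adjusted p 0.0212, edgeR). It was called in 10 of the 12 fits that left out 1 library, the exceptions being those without Sal liver 6 (adjusted p 0.0542) and without control liver 4 (0.0501). ERCC5, the XPG nuclease that cuts on the other side of the lesion, had a log2FC of -0.43 (SE 0.22, adjusted p 0.194). ERCC6, which starts repair where RNA polymerase has stalled, had 0.55 (SE 0.23, adjusted p 0.113), with 5 of 6 Sal livers above all controls. XPA, XPC and the helicase ERCC3 had values of 0.03, -0.09 and 0.28.

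In base excision, UNG had 1.20, 2.00 and 10.4 CPM in control livers and 4.54, 10.2 and 16.1 CPM in Sal livers. The log2FC of 1.24 carried a standard error of 0.50 and an adjusted p of 0.108. PARP1, which binds strand breaks and makes poly(ADP-ribose), had 55.1 ± 6.42 CPM in control livers and 52.3 ± 4.19 CPM in Sal livers, a log2FC of -0.13 (adjusted p 0.518). OGG1 had a log2FC of 0.39 (adjusted p 0.573).

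Several measures of the libraries moved with exposure in the liver. The summed CPM of 12 hepatocyte markers was 141249 to 306563 in control livers and 114980 to 198962 in Sal livers (exact permutation test, p = 0.013, 0.0487 adjusted over 30 tests of library measures). The 6 thrombocyte markers found summed to 29.5 to 60.8 CPM in control and 14.3 to 23.9 CPM in Sal livers (exact p = 0.00216, the smallest that 6 against 6 libraries allow, 0.0324 adjusted), and the cardiomyocyte markers to 47.6 to 273.7 CPM and 8.52 to 44.6 CPM (exact p = 0.00216). The 12 proliferation markers found summed to 165.8 to 389 CPM in control and 232 to 395 CPM in Sal livers (exact p = 0.154), and the 10 leukocyte markers found to 1972 to 3238 CPM and 1869 to 2884 CPM (exact p = 0.489). By gene, 10 of the 12 proliferation markers had a log2FC above 0 (median 0.52, KIF11 called higher) and 8 of the 10 leukocyte markers (median 0.34, PTPRC called higher), while all 5 erythrocyte markers found were below 0 (median -1.09, HBBA and HBA1 called lower). No marker found was at 0 in all libraries of a tissue. The TMM scaling factor was 0.925 to 1.42 in Sal and 0.713 to 1.17 in control livers (exact permutation p = 0.0108, 0.0463 adjusted). It went the other way in the hearts, with 0.425 to 1.14 in Sal and 1.06 to 1.31 in control hearts (exact permutation p = 0.00649, 0.0389 adjusted). Among the control livers, numbers 2 and 6 had both the highest BRCA1 (8.16 and 5.79 CPM) and the highest proliferation sum (389 and 300.1 CPM).

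Long genes were also higher relative to short genes in the Sal livers. The median log2 deviation of the top quartile of genes by genomic span minus that of the bottom quartile was 0.46 ± 0.43 in Sal livers and -0.01 ± 0.12 in control livers (SD, n = 6 each, exact permutation p = 0.0281, 0.0648 adjusted). DNA repair genes were longer than most, with a median genomic span of 29793 bases beside 15444 bases over the genes tested in the liver, and 17 of the 46 were in the top quartile. With offsets on genomic span BRCA1, ERCC4, RAD51B and RNF168 were called again in the liver, ERCC5 was called lower, and ATM was not called. In that fit 13.5% of all genes were called. The part of cell composition in these changes was not tested.

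**Figure D3:**
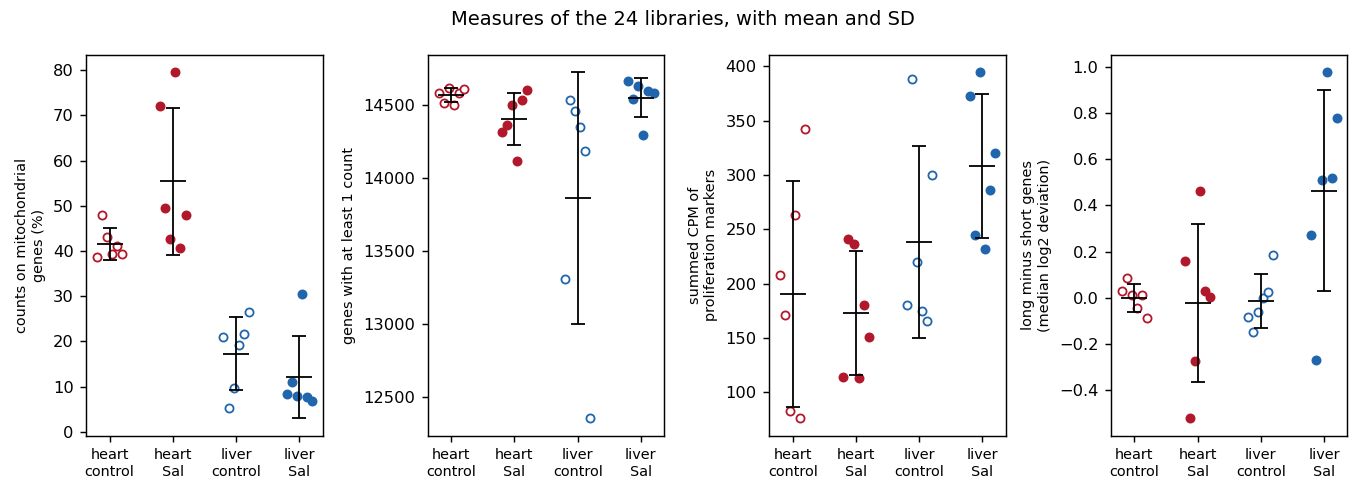
Share of counts on mitochondrial genes, genes with at least 1 count, summed CPM of proliferation markers, and the log2 deviation of long minus short genes in each of 24 libraries (open for control, filled for Sal-exposed; red for heart, blue for liver), with the mean and SD of each group. Deviations are from the mean of the control libraries of the same tissue. Sal hearts 1 and 4 stand at 72.0 and 79.6% in the first panel, control livers 1 and 6 at 13311 and 12355 genes in the second, and the Sal livers lie mostly above 0 in the last, at a mean of 0.46.

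Genes that act together did not all move together. For 10 pairs of partners, chosen after the values had been seen, the log2 ratio of their counts was taken in each library, which does not depend on the scaling of libraries, and p-values were adjusted over the 20 tests in both tissues. Because of that choice, the p-values of these ratios describe the separation of the libraries and are not independent tests. The ratio of ATR to ATRIP was -1.41 to -0.79 in control hearts and -2.53 to -1.42 in Sal hearts, a difference of -0.75 (SE 0.19, exact permutation p = 0.00216, adjusted 0.0216). All 6 Sal hearts lay below all control hearts. In the liver the same ratio differed by 1.09 in the other direction (SE 0.40), with overlap (exact p = 0.013, adjusted 0.065).

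The ratio of RNF8 to RNF168 was -3.13 to -0.99 in control livers and -0.81 to -0.34 in Sal livers, a difference of 0.99 (SE 0.33, exact p = 0.00216, adjusted 0.0216). All 6 Sal livers lay above all control livers, and without control livers 1 and 6 the difference was 0.67. Without any 1 of the Sal livers the adjusted p was 0.0649, with a difference of 0.92 to 1.01. In the heart this ratio differed by 0.03 (exact p = 0.729). BRCA1 relative to BARD1 was lower in Sal hearts by a mean of -0.74 (SE 0.22), with overlap and an adjusted p of 0.065 (exact permutation), and in the liver the ratio rested on control liver 6, which had no BARD1 count. None of the other pairs had an adjusted p below 0.159, among them the Ku subunits, with a difference in XRCC6 to XRCC5 of -0.59 in the liver (SE 0.25, exact p = 0.0433).

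**Figure D4:**
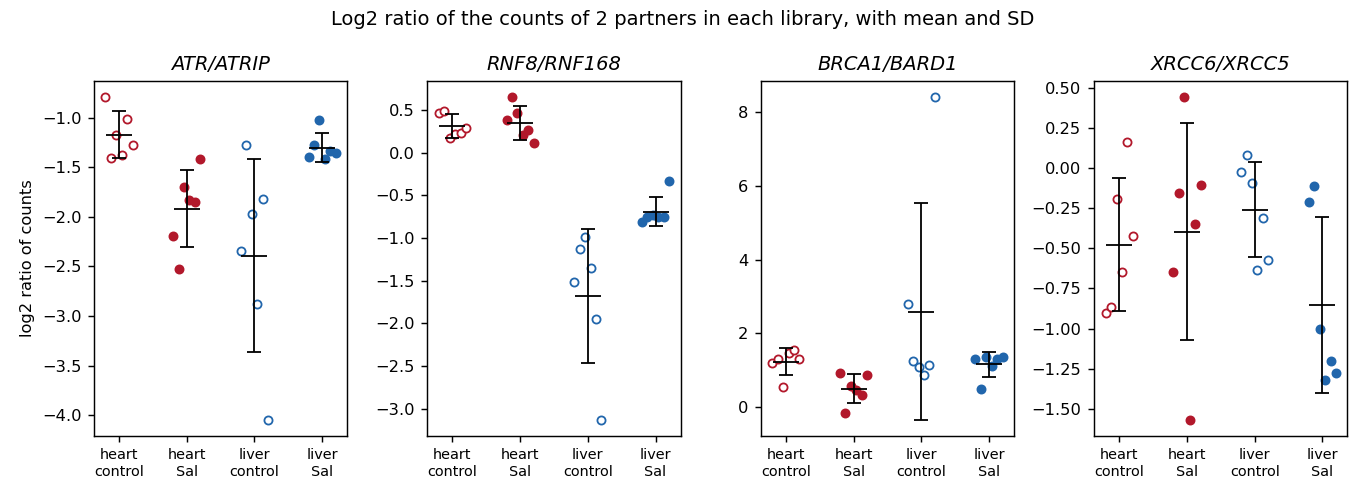
Log2 ratio of the counts of 2 partners (0.5 counts added to each) in each library, for ATR/ATRIP, RNF8/RNF168, BRCA1/BARD1 and XRCC6/XRCC5 (open for control, filled for Sal-exposed; red for heart, blue for liver), with the mean and SD of each group of 6. ATR/ATRIP is at -1.42 or less in all Sal hearts and at -1.41 or more in all control hearts, and the high point of BRCA1/BARD1 at 8.41 is control liver 6, with 0 counts of BARD1.

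Whether the response differed between the organs was tested by the interaction term of a fit to all 24 libraries, the same libraries as in the comparisons above. The interaction was called for 6 of 46 genes, 13% beside 16.2% of all 14632 genes tested. All 6 had a higher log2FC in the liver than in the heart, 13% of the set beside 9.01% of all genes in that direction. The median difference of the set was 0.33 and that of all genes 0.09, and 69.6% of the set lay above 0, beside 54.3% of all genes.

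The 6 genes were ATM, ATR, TP53BP1, BRCA1, PRKDC and ERCC4. The 3 with the lowest p were ERCC4 with a difference of 1.17 (SE 0.27, adjusted p 0.00527), ATM with 1.22 (SE 0.30, adjusted p 0.00733) and BRCA1 with 2.20 (SE 0.57, adjusted p 0.0102), all in edgeR. ATR followed with 1.67 (SE 0.45, adjusted p 0.013), and its own values were lower with Sal in the heart and higher in the liver. TP53BP1 had 0.86 (SE 0.27, adjusted p 0.0296) and PRKDC 0.93 (SE 0.30, adjusted p 0.0335). The model of TP53BP1 overlaps that of TUBGCP4, and the model of PRKDC that of MCM4. ERCC4, ATM, BRCA1 and ATR remained called in each of the 24 fits that left out 1 library.

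TP53BP1 was called in 21 and PRKDC in 17 of these fits. With offsets on genomic span in edgeR neither TP53BP1 (adjusted p 0.0611) nor PRKDC (0.162) was called. TP53BP1 lost its call without control heart 5 or Sal liver 3 or 6, and PRKDC without Sal heart 1 or 2, control heart 1, Sal liver 3 or 6, or control liver 1 or 4, with adjusted p-values of 0.0506 to 0.067. Leaving out control liver 2 raised the count of called genes to 12, of which 10 were higher in the liver. The share of all genes called was 20.1% in that fit, beside 16.2% in the main fit. Without Sal hearts 1 and 4 and control livers 1 and 6, ATM, ATR, BRCA1 and ERCC4 were called, beside 16% of all genes. With the mitochondrial share as a covariate 4 genes were called, beside 13.2% of all genes. These were ATM and ERCC4 again with RAD50 and FANCD2, while BRCA1 (adjusted p 0.0579) and ATR (0.0647) were not called. With surrogate variables the 5 called genes were ATM, ATR, BRCA1, ERCC4 and UNG, beside 15.3% of all genes.

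Between the organs of control birds, RAD51B and XPA were several-fold higher in the liver. The test of control heart against control liver called 21 of 46 genes, 45.7% beside 68.8% of 14121 genes. Of these, 8 were higher in heart (17.4%, background 35.9%) and 13 higher in liver (28.3%, background 32.9%), and the median absolute log2FC was 0.64 for the set and 1.13 for all genes. These comparisons share the control libraries with the tests of Sal exposure, and they too treat heart and liver libraries as independent.

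RAD51B, whose model overlaps TMEM229B (5.27 CPM over the hearts and 29.3 CPM over the livers), showed the widest gap between the organs, with 1.27 ± 0.38 CPM in control hearts and 12.1 ± 4.00 CPM in control livers (SD, n = 6 each) and a log2FC of -3.26 (SE 0.28, adjusted p 1.78e-07, edgeR). XPA followed, with 16.01 ± 1.62 CPM in hearts and 55.6 ± 12.5 CPM in livers, a log2FC of -1.82 (SE 0.15, adjusted p 1.17e-07). FANCA was lower in heart by -1.71 (SE 0.46), OGG1 by -1.63 (SE 0.41), WRN by -1.56 (SE 0.19) and RNF168 by -1.37 (SE 0.23), all called. The model of FANCA overlaps ZNF276 (8.33 CPM over the hearts and 10.7 CPM over the livers). That of OGG1 overlaps CAMK1 (27.9 CPM over the hearts and 7.73 CPM over the livers), and that of RNF168 the models named above. With the mitochondrial share as a covariate FANCA was at -0.29 and OGG1 at 0.57, and neither was called. That share was 38.6 to 47.9% in control hearts and 5.21 to 26.5% in control livers, without overlap. This fit therefore cannot separate the share from the organ.

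In the other direction, RAD52, a strand-annealing protein, had 25.0 ± 3.01 CPM in control hearts and 10.8 ± 3.02 CPM in control livers, a log2FC of 1.19 (SE 0.18, adjusted p 5.09e-05). ATM, ERCC4, ERCC6, RAD51C, RNF8, MSH6 and ERCC3 were also higher in heart, by 0.35 to 0.84. MSH6 (0.61, adjusted p 0.0119) lost its call without control heart 2 and was at 0.09 with offsets on genomic span. LIG4, the ligase of end joining, had the largest difference of its pathway at 1.03 (SE 0.84, adjusted p 0.289), and 2.46 without control liver 1, when it was called. The same contrast in the Sal-exposed birds called 23 genes of the set, beside 64.3% of all genes, 3 higher in heart and 20 higher in liver, and 13 of the 21 called in control birds were among them.

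**Figure D5:**
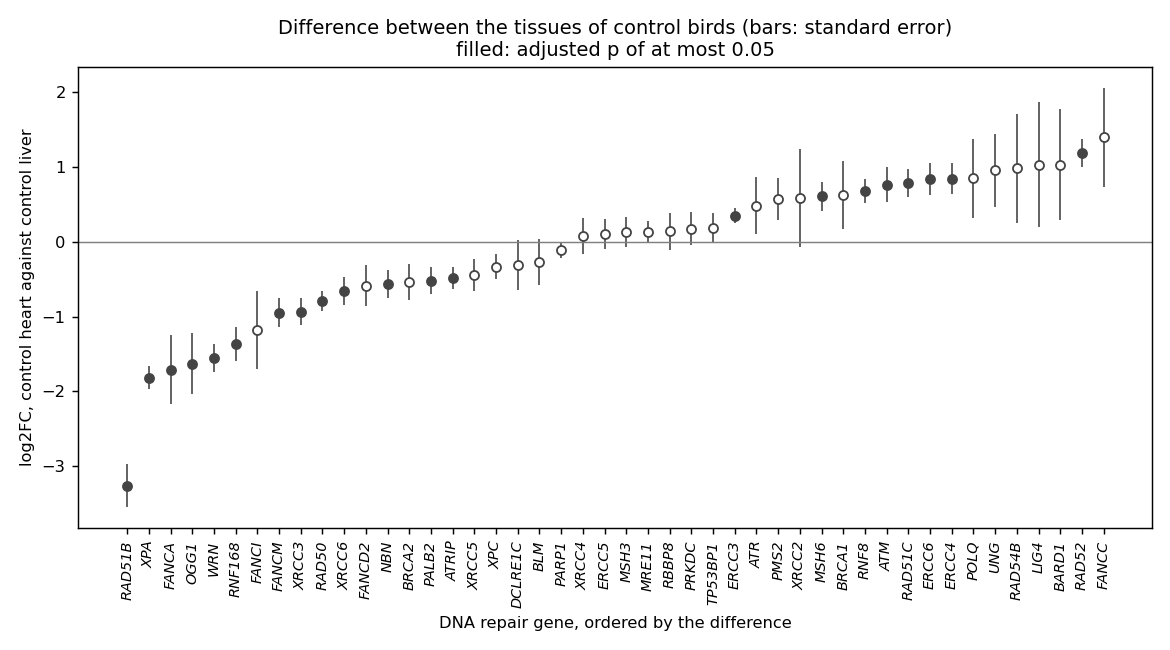
Log2FC of control heart against control liver for the 46 DNA repair genes (vertical axis, with standard errors), ordered by value and filled where the adjusted p was at most 0.05. RAD51B at -3.26 and XPA at -1.82 stand at the left end, 13 filled points are below 0 and 8 above, and the widest error bars belong to genes of few counts such as LIG4.

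A wider list of 121 further repair genes was read from the same fits, with 103 found in the table. In the heart 0 of 103 were called by edgeR. At an unadjusted p below 0.05 there were 10 of 103, beside 17.2% of all genes. Of these 10, 8 were higher and 2 lower, and of all genes 10.1% were higher and 7.1% lower. In the liver 10 of 102 tested were called, 9.8% beside the 15.4% of all genes, 7 higher and 3 lower, with a median log2FC of 0.19. The 3 with the lowest p were REV3L, the catalytic subunit of the lesion-bypass polymerase zeta, with a log2FC of 1.08 (SE 0.22, adjusted p 0.00837), PAXIP1, a scaffold of the ATM response, with 1.14 (SE 0.24, adjusted p 0.0103), and PARG, which removes poly(ADP-ribose), with 0.70 (SE 0.15, adjusted p 0.0111). For PAXIP1 and PARG all 6 Sal livers lay above all control livers, a separation that 3.8% of all genes showed. The share among the further genes is not given here.

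The interaction was called for 12 of the 103 further genes, 11.7% beside 16.2% of all genes, 9 with a higher log2FC in the liver and 3 lower. REV3L (1.37), APTX (-1.26), which mends failed ligation ends, and PARG (0.73) had the lowest p. Between control heart and control liver 50 of 102 were called, 49% beside 68.8% of all genes, 21 higher in heart and 29 higher in liver, led by BABAM1 (-1.30), NHEJ1 (-2.71) and PARG (1.08).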

How the data were processed

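RNA-seq libraries of heart and liver from 6 Sal-exposed and 6 control chickens were analysed. The authors trimmed the reads, mapped them with STAR to GRCg7b and quantified genes with RSEM, program versions being not given in the sources used here. The deposited table holds raw counts, whole numbers for each Ensembl gene. Symbols, positions and biotypes, other values deposited by the authors beside their DESeq2 results, were used, and their columns of fold changes and p-values were not. The count table has 12 further columns of no sample listed here, which were not used.

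Counts were fitted in R 4.3.3 with edgeR 4.0.16 (TMM, filterByExpr at its limits of 10 counts and 15 in total, quasi-likelihood test, Benjamini-Hochberg adjustment over all genes). The threshold was an adjusted p of at most 0.05. The authors corrected with sva by a function not given in the sources used here, so surrogate variables (sva 3.50.0) were an alternative. DESeq2 1.42.0, limma 3.58.1 and the other alternatives are given in the closing section. The fits were tested on simulated data. Depth was 31.4 to 44.5 M counts per library. An SD is the spread between birds. The SE of an edgeR log2FC was its absolute value divided by the square root of the F statistic of the test. For a partner ratio the SE came from the variances of both groups. Single values of a library were compared over all splits into 6 and 6, a two-sided exact permutation test.

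The genes, lists and partner pairs were chosen with earlier results of these data known. Named were the called genes, the highest and lowest log2FC of each pathway per tissue, the called interactions, the largest organ difference of each pathway and the 3 lowest p among other called repair genes. Further genes were named to account for the set, after their values were seen. The replicate numbers were not used as a pairing, since the labels do not tie them to birds.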

Additional observations from a re-analysis of the deposited data

Results flagged for a closer look

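For 6 genes the log2FC differed between liver and heart by the interaction test, each higher in the liver: ERCC4 (1.17), ATM (1.22), BRCA1 (2.20), ATR (1.67), TP53BP1 (0.86) and PRKDC (0.93). They were 13% of the set, beside 16.2% of all genes called in either direction and 9.01% called higher in the liver.

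In 10 of 85 groups of 6 libraries tested with Dixon's criterion, 1 library stood far from the others, where chance gives about 1 in 20. Control liver 2 had 4.79 CPM of POLQ, against 1.09 to 2.17 CPM in the other control livers, and 12.7 CPM of FANCA, against 3.36 to 5.65 CPM. Control liver 6 had 2.62 CPM of ATM, against 6.54 to 7.76 CPM. Control liver 1 had 2.24 CPM of LIG4, against 0 to 0.469 CPM. Sal liver 3 had 6.85 CPM of MSH3, against 3.91 to 4.83 CPM, and Sal liver 4 had 22.8 CPM of ERCC5, against 12.2 to 15.8 CPM. Sal liver 4 also had 30.4% of its counts on mitochondrial genes, against 6.92 to 10.9%, and a count for 14297 genes, against 14544 to 14664. PALB2 was at 4.72 CPM in Sal heart 1, against 3.84 to 4.15 CPM, and at 3.27 CPM in control heart 6, against 3.78 to 4.05 CPM.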

How the results depend on the processing

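In the heart DESeq2 called 1 gene of the set (673 of all genes, against 25 in edgeR) and surrogate variables 2 (993 of all genes), where edgeR alone called 0. In the liver, where 5 were called (15.4% of all genes), surrogate variables gave 0 (0% of all genes) and a replicate block 1 (7.43%). A fit of all 24 libraries gave 9 (25%), and an added log2FC of at least 1 gave 2 (7.01%). The liver median moved from 0.20 to 0.00996 with surrogate variables. Between control heart and liver, surrogate variables gave 33 calls (79.3% of all genes) and the added log2FC limit 7 (50.8%), against 21 (68.8%). OGG1 went from -1.63 to 0.57 with the mitochondrial share as a covariate, without a call, in a fit that cannot separate that share from the organ. Leaving out 1 library gave 0 to 1 calls in heart, 0 to 10 in liver, 4 to 12 for the interaction and 21 to 26 between the organs. The shares of all genes called in these fits were 0 to 1.99%, 6.54 to 20.7%, 11.7 to 20.4% and 65.9 to 72.5%. The medians of the set were -0.11 to -0.04 in heart and 0.14 to 0.23 in liver. Same-numbered libraries did not deviate together in all pairs of any comparison (correlations of -0.17 to 0.47, pairs of exposed and control birds included). All libraries were treated as independent, although heart and liver libraries of 1 bird may not be. A block on the number gave 0 calls in heart, 7 for the interaction (15.6% of all genes) and 21 between the organs (65.5% of all genes). In the interaction fit this block joins exposed and control birds of equal number, so it does not account for organs of the same bird. Both organs were taken from 6 birds a group, the labels do not say whether a number marks the same bird in both, and the own number correlated best for 5 of 6 exposed and 3 of 6 control pairs of heart and liver. Sets without libraries that stood apart, and the partner ratios, were chosen after the data were seen. The cause of these shifts was not tested. Genes of few counts, such as LIG4, RAD54B and FANCC, had standard errors of 0.64 to 0.97 in liver. LIG4 and FANCC had no count in control liver 6 (41.2 M counts, 12355 genes with a count). RAD54B had none in control liver 1 (35.4 M counts, 13311 genes). The part of depth in these errors was not tested.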

Other observations

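Control liver 2 and Sal liver 2 each held the extreme of their group for several genes of the set. Control liver 2 had the highest control values of ATR (7.50 CPM), BRCA1 (8.16 CPM), BARD1 (3.44 CPM) and ERCC4 (4.04 CPM), and also the lowest mitochondrial share of the livers (5.21%) and the lowest hepatocyte marker sum of the control livers (141249 CPM). Sal liver 2 had the lowest Sal values of BRCA1 (5.02 CPM), BARD1 (3.54 CPM) and ERCC4 (4.11 CPM). Whether the cell makeup or the RNA of these livers bears on the levels was not tested.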
